A study of Mus musculus with 4 samples.

Results

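The mTORC1 kinase complex acts by phosphorylating a small set of proteins, and the transcripts of 10 of these substrates and effectors were examined here: Rps6kb1, Rps6kb2, Eif4ebp1, Eif4ebp2, Ulk1, Larp1, Lpin1, Tfeb, Grb10 and Maf1. They were chosen by name as direct substrates of mTORC1. All 10 were among the 54021 gene symbols of the count table, and all 10 passed the filter on low counts that left 11758 genes for testing. The data were RNA-seq read counts of rOvaries, which are ovary-like grafts, from 2 libraries of INK128-treated recipients (replicates 1 and 2) and 2 control libraries (replicates 1 and 3). INK128 inhibits mTOR and was given in the drinking water, at 0.75 µM per g by the labels, while control recipients received none. Every recipient, treated or control, was an ovariectomized young adult female of the 2nd generation without telomerase RNA (G2 Terc-/-), on the C57BL/6 background. The grafts were aggregates of fetal cells, germ cell precursors with somatic cells of the gonad, placed under the kidney capsule and collected 1 month later. Their donors came from C57BL/6 and actin-GFP crosses and were not described as lacking Terc, unlike the host tissue around the graft. Whether a library came from 1 graft or from several was not given in the sources used here.

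mTORC1 couples growth to nutrients and insulin-type signals. It activates the S6 kinases, inactivates the 4E-BP repressors of cap-dependent translation, releases the RNA-binding protein LARP1 from its block on transcripts of the translation machinery, and restrains autophagy and lysosome formation through ULK1 and TFEB. It also acts on lipid synthesis through lipin 1, on insulin signaling through the adaptor GRB10, and on RNA polymerase III through the repressor MAF1. In the ovary, mTORC1 activity is known for its part in the activation of primordial follicles. All of these steps are changes of phosphorylation, which read counts do not measure. The counts show how much transcript of each substrate was present.

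Depth was 19130209 to 23029089 counts per library, so that a floor of 3 counts lay at 0.13 to 0.157 CPM (counts scaled to library size) by the raw totals, a limit of counting error alone. All other CPM values were scaled with TMM factors as well. The INK128-treated libraries resembled each other more (Pearson correlation of log2 CPM 0.98 across genes, which are not independent replicates) than the controls did (0.806). Each control stood apart in its own way. In control replicate 1, 4 Y-linked genes summed to 1021 counts against 0 to 2 in the other libraries, and 9 Sertoli cell markers summed to 6840 CPM against 1050 to 1350. In control replicate 3, 13 oocyte markers summed to 34.8 CPM against 1040 to 1440 in the other libraries. Of these 13, 10 were higher in both INK128-treated libraries than in both controls and 0 were lower. By sum, control replicate 1 (1040 CPM) was close to INK128 replicate 2 (1090 CPM). The 9 theca and luteal markers set the controls far apart, with sums of 814 CPM (replicate 1) and 11600 CPM (replicate 3) on either side of the INK128-treated libraries (4030 and 5230 CPM). The 12 granulosa markers, which define the labelled tissue, summed to 5340 to 11300 CPM in all 4 libraries. Of 20 kidney markers, 17 were lower in both INK128-treated rOvaries (sums of 132 and 236 CPM) than in both controls (881 and 1880 CPM), and 10 of 14 immune markers were lower as well (588 and 533 against 1030 and 1420 CPM). None of the 8 marker lists had a gene at 0 in all libraries. The part of these cell types in the results below was not tested, and in bulk tissue fewer cells of a type cannot be told apart from less RNA per cell. Nothing says whether the libraries of a group came from separate recipients, so the p-values measure the spread between these libraries.

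Sequence upstream of the transcription start was available for 7 of the 10 genes from RefSeq (GRCm38.p6, the same coordinates as mm10), as 10 windows that ran from 250 bases before the start to 50 bases after it. No window was at hand for Rps6kb2, Eif4ebp1 or Maf1. The 250 bases before 3 starts are shown because these genes differ in their letters and in the values given below. Lpin1 had the largest decrease of the 10 genes, Eif4ebp2 the next largest and Ulk1 a small one. Capitals mark matches to either of 2 motifs on either strand: the GC box, spelled CCGCCC (bound by SP1-type factors), and the core of the cyclic AMP response element, spelled TGACG. Another motif, the E-box spelled CACGTG to which TFEB and its relatives bind, had no match in these stretches.
Lpin1, minus strand, chr12:16610967-16611216: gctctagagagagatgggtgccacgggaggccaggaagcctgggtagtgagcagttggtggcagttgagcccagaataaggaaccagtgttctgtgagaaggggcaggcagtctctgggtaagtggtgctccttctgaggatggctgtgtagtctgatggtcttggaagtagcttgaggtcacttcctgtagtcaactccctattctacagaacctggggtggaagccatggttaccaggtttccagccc
Eif4ebp2, minus strand, chr10:61452670-61452919: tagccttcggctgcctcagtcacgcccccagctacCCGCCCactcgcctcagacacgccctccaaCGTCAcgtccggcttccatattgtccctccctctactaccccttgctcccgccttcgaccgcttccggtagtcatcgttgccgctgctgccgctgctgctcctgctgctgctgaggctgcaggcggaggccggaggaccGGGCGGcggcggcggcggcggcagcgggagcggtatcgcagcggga
Ulk1, minus strand, chr5:110810082-110810331: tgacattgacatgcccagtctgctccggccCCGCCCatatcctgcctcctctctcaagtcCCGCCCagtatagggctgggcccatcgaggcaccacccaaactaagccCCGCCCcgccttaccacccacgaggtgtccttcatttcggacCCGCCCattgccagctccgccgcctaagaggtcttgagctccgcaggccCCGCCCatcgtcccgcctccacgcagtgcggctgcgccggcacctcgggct

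The stretch of Ulk1 held 5 GC boxes, that of Eif4ebp2 held 2 GC boxes and 1 response element core, and that of Lpin1 held none of the 3 motifs. Over the whole windows, GC boxes were in 7 of the 10 windows (5 of the 7 genes), against 35.7% of all 32851 promoter windows. The response element core was in 3 windows, those of Eif4ebp2, Larp1 and 1 of the 2 starts of Grb10, against 20.8% of all windows. The E-box was in 0 of the 10 windows, against 7.15% of all windows, which says only that these letters are not within these stretches. G and C made up 55.3% of the Lpin1 window, 68% for Ulk1, 70% for Eif4ebp2 and 85.3% for Larp1, with a median of 52.7% over all windows.

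To ask whether INK128 changed the transcripts of mTORC1 substrates, the groups were compared by edgeR's quasi-likelihood test, with p-values adjusted over all 11758 tested genes (Benjamini-Hochberg) and a call required more than a 1.5-fold difference as well as an adjusted p under 0.05. None of the 10 genes was called, while 6.37% of all tested genes were, 3.18% as higher and 3.19% as lower with INK128. At an unadjusted p below 0.05 the test held 3 of the 10 (Lpin1, Eif4ebp1 and Eif4ebp2), against 36.4% of all tested genes. DESeq2 called 2 of the 10, Lpin1 as lower and Eif4ebp1 as higher, against 28.6% of all tested genes. The same pair was called by edgeR at an adjusted p below 0.1, where 26.6% of all tested genes were called. The median log2 fold change of the 10 genes was -0.19, against -0.03 for all tested genes, and their values ran from -1.15 to 0.84. Both INK128-treated rOvaries lay below both controls for 5 genes (Lpin1, Eif4ebp2, Larp1, Ulk1 and Rps6kb1), as for 33.3% of all tested genes, and above both controls for 2 genes (Eif4ebp1 and Rps6kb2), as for 35.2% of all tested genes. The groups overlapped for Grb10, Maf1 and Tfeb.

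**Figure D1:**
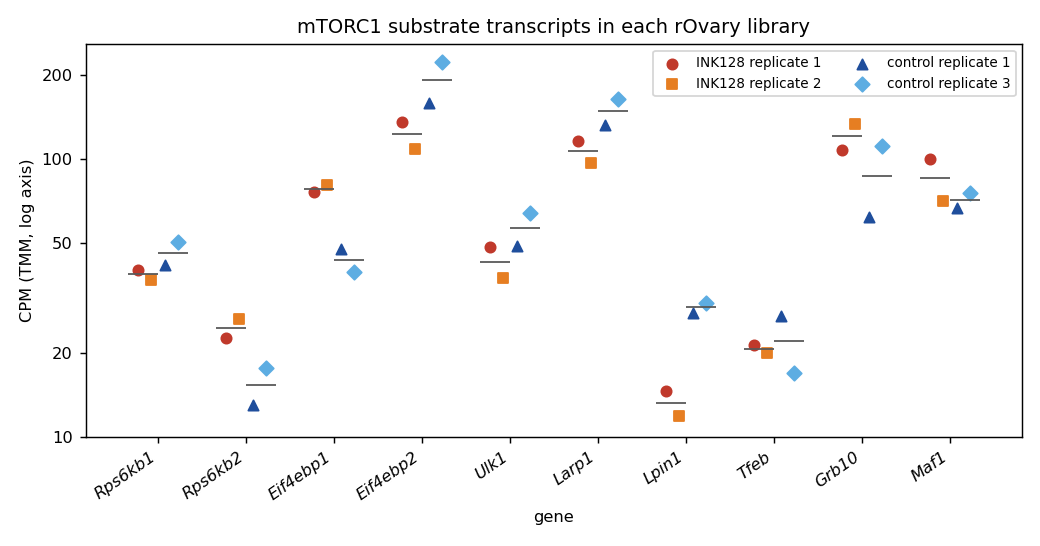
Level of each of the 10 transcripts in every library (CPM with TMM scaling, log axis), with a grey line at the mean of the 2 libraries of each group. The INK128-treated and control libraries stand clear of each other for Eif4ebp1, Rps6kb2 and Lpin1, lie close for Rps6kb1 and Ulk1, and interleave for Tfeb, Grb10 and Maf1.

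The substrates that control translation were taken first. The 4E-BP repressors hold the cap-binding protein eIF4E and keep it from assembling the initiation complex. Eif4ebp1 (ENSMUSG00000031490, chromosome 8, 27260329 to 27276674 on mm10, plus strand) was at 75.8 and 80.6 CPM with INK128, against 47.4 and 39.1 CPM in controls. Both treated libraries were thus well above both controls, with means of 78.2 ± 3.42 CPM (SD, n = 2) and 43.3 ± 5.83 CPM (SD, n = 2). The fold change was 1.79, or 0.84 on the log2 scale (standard error 0.19, 95% interval 0.35 to 1.33, edgeR adjusted p = 0.0591). DESeq2 gave an adjusted p of 0.00458. Eif4ebp2 (ENSMUSG00000020091, chromosome 10, 61428491 to 61452661, minus strand), the paralog whose promoter is shown above, moved the other way. It had 136 and 109 CPM with INK128 and 159 and 224 CPM in controls, with means of 123 ± 18.5 CPM (SD, n = 2) and 192 ± 45.7 CPM (SD, n = 2). On the log2 scale this was -0.66 (standard error 0.25, edgeR adjusted p = 0.137). The third member of the family, Eif4ebp3, was not among the 10 genes. It was counted at 14.8 and 15.8 CPM with INK128 and 7.58 and 5.42 CPM in controls (log2 fold change 1.22, edgeR adjusted p = 0.0734; 0.73 with offsets for exon length).

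A ratio of counts of 2 genes within a library does not depend on library scaling, but a trend with length can move it. Eif4ebp1 had 0.559 and 0.737 reads per read of Eif4ebp2 in the INK128-treated rOvaries, and 0.297 and 0.175 in the controls. The groups did not overlap, and the ratio was 2.82-fold higher with INK128, a difference of 1.49 in log2 ratio. Eif4ebp1 has the shorter exons (2196 against 5784 bases), fold changes ran with length in these libraries, and with offsets for exon length the log2 fold changes of the genes lay closer, at 0.49 and -0.42. With 2 libraries against 2, the exact permutation test (two-sided) cannot give a p below 0.333, which is what it gave here; adjusted over the 8 ratios examined it was 0.888. Per exon length, Eif4ebp1 transcripts were at 1.47 and 1.94 times the Eif4ebp2 level in INK128-treated rOvaries and at 0.782 and 0.46 times that level in controls. By this measure the order of the 2 paralogs was reversed between the groups. Exon length here joins all annotated exons of a gene over its transcripts, and can exceed the transcript expressed. With other lengths the order could differ. Eif4e, their common target, overlapped between the groups (log2 fold change 0.17, edgeR adjusted p = 0.623). Reads of both repressors together, per read of Eif4e, were 1.81 and 1.47 with INK128 and 1.62 and 2.92 in controls, so that this summed ratio overlapped as well.

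The S6 kinases phosphorylate ribosomal protein S6 and other translation proteins. Rps6kb1 (ENSMUSG00000020516, chromosome 11, 86498871 to 86544805, minus strand), which encodes S6K1, had 39.9 and 36.8 CPM with INK128 and 41.6 and 50.3 CPM in controls. The nearest libraries of the groups were 39.9 and 41.6 CPM, close to each other, and the log2 fold change was -0.27 (95% interval -0.79 to 0.25, edgeR adjusted p = 0.361). Rps6kb2 (ENSMUSG00000024830, chromosome 19, 4153991 to 4163354, minus strand), which encodes S6K2, had 22.6 and 26.5 CPM with INK128 and 13.0 and 17.7 CPM in controls. Both treated libraries were above both controls, with a log2 fold change of 0.67 (95% interval -0.06 to 1.40, edgeR adjusted p = 0.158). Of the exons of Rps6kb2, 23.7% lie opposite the gene Ptprcap, which encodes a protein associated with the leukocyte phosphatase CD45. Ptprcap had 77.1 and 93.1 CPM with INK128 and 59.9 and 43.5 CPM in controls, and because counting by strand is not stated, reads of the shared stretch cannot be told apart. Rps6kb1 had 1.76 and 1.39 reads per read of Rps6kb2 with INK128 and 3.21 and 2.85 in controls. These ratios did not overlap and were 1.93-fold lower with INK128 (exact permutation p = 0.333, the smallest possible). Per length of all annotated exons, the kinases were near parity in the INK128-treated rOvaries (1.05 and 0.83). S6K1 transcripts were ahead in controls (1.91 and 1.7). The mRNA of their classic substrate, Rps6, had 1540 and 1680 CPM with INK128 and 787 and 683 CPM in controls, and was called as higher (log2 fold change 1.12, edgeR adjusted p = 0.0486). With offsets for exon length it was at 0.64 (edgeR adjusted p = 0.119).

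Larp1 (ENSMUSG00000037331, chromosome 11, 58009064 to 58062034, plus strand) encodes a protein that binds transcripts beginning with a terminal oligopyrimidine (TOP) tract and represses them when mTORC1 is off. It had 116 and 97 CPM with INK128 and 133 and 164 CPM in controls. All treated values were below all control values, by -0.50 on the log2 scale (standard error 0.20, edgeR adjusted p = 0.158). Its paralog Larp1b was at 15.6 and 12.9 CPM against 19.7 and 15.9 CPM, and the count ratio of Larp1 to Larp1b overlapped between the groups (7.45 and 7.52 with INK128, 6.75 and 10.3 in controls).

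**Figure D2:**
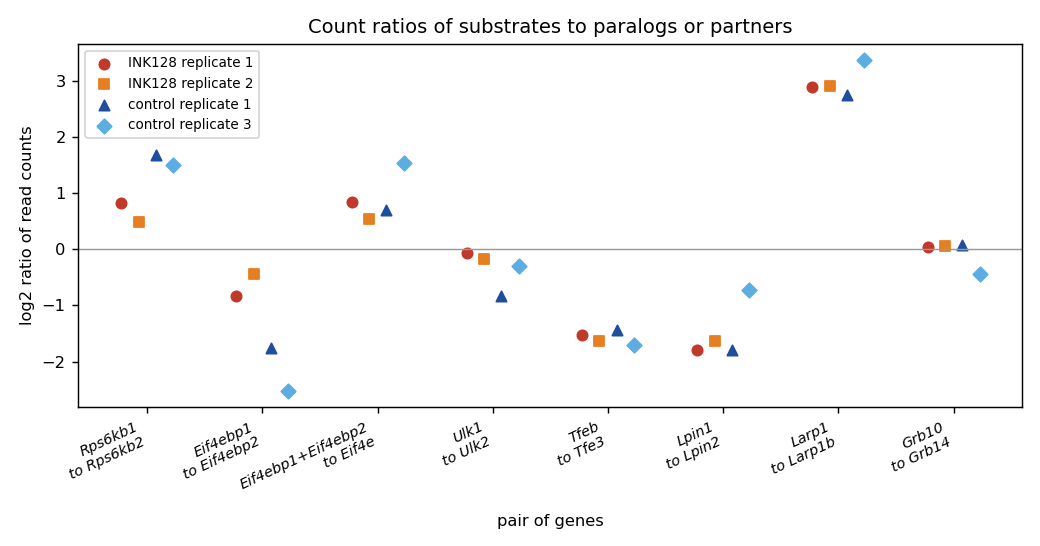
Log2 ratio of read counts within each library, for 8 pairs of a substrate and its paralog or partner. The ratio of Rps6kb1 to Rps6kb2 is lower and that of Eif4ebp1 to Eif4ebp2 is higher in both INK128-treated libraries, the Ulk1 to Ulk2 ratio is higher by a small margin, and the other 5 ratios overlap.

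The substrates of autophagy and the lysosome came next. ULK1 is the kinase that starts autophagosome formation and is held inactive by mTORC1. Ulk1 (ENSMUSG00000029512, chromosome 5, 110784488 to 110810097, minus strand) had 48.0 and 37.3 CPM with INK128 and 48.7 and 63.9 CPM in controls. The higher treated library was almost level with the lower control, and the log2 fold change of -0.41 had a 95% interval of -1.05 to 0.22 (edgeR adjusted p = 0.272). Its paralog Ulk2 had 50.1 and 42.1 CPM with INK128 and 86.9 and 78.6 CPM in controls (log2 fold change -0.86, edgeR adjusted p = 0.0577). The Ulk1 to Ulk2 count ratio was 0.958 and 0.886 with INK128 and 0.561 and 0.812 in controls, with no overlap (exact permutation p = 0.333). TFEB is the transcription factor of lysosomal genes that mTORC1 keeps in the cytoplasm. Tfeb (ENSMUSG00000023990, chromosome 17, 47737030 to 47792419, plus strand) had 21.3 and 20 CPM with INK128, between the controls at 27.2 and 16.9 CPM. The log2 fold change was -0.11, with a 95% interval from -0.93 to 0.71 (edgeR adjusted p = 0.817). Its relative Tfe3 also overlapped, with 61.5 and 61.8 CPM against 73.9 and 55.3 CPM, and the Tfeb to Tfe3 count ratio lay within 0.306 to 0.368 in all 4 libraries.

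Of the metabolic substrates, Lpin1 had the largest decrease of the 10 genes, with or without the length offsets. It encodes lipin 1, a phosphatidate phosphatase that also acts in the nucleus on lipid genes when mTORC1 does not phosphorylate it. Lpin1 (ENSMUSG00000020593, chromosome 12, 16535669 to 16610966, minus strand) had 14.6 and 11.9 CPM with INK128 and 27.9 and 30.4 CPM in controls, or 271, 257, 634 and 725 counts. The libraries of each group were close together and the groups were far apart, with means of 13.2 ± 1.93 CPM (SD, n = 2) and 29.2 ± 1.77 CPM (SD, n = 2). Controls were 2.22-fold higher, a log2 fold change of -1.15 (standard error 0.24, 95% interval -1.79 to -0.52, edgeR adjusted p = 0.0553). DESeq2 gave an adjusted p of 0.00218. The summed kidney and immune markers were lower in both treated libraries too, and their part in this difference was not tested. Over all tested genes, 9.43% had a lower log2 fold change than Lpin1. Lpin2, a related phosphatase, had 50.8 and 36.9 CPM with INK128 and 97.0 and 50.6 CPM in controls. The Lpin1 to Lpin2 ratio did not separate the groups (0.287 and 0.322 with INK128, 0.288 and 0.601 in controls), since control replicate 1 matched the treated libraries. Without that control the difference in log2 ratio was -0.98.

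GRB10 is an adaptor that dampens insulin and IGF1 receptor signaling and is stabilised by mTORC1, and its gene is imprinted. Grb10 (ENSMUSG00000020176, chromosome 11, 11930508 to 12038683, minus strand) had 108 and 134 CPM with INK128 and 61.8 and 111 CPM in controls. Control replicate 3 lay between the treated libraries and control replicate 1 was well below, so the log2 fold change of 0.47 had a 95% interval of -0.40 to 1.35 (edgeR adjusted p = 0.348). Grb14 had both treated libraries between the controls at 58.3 and 149 CPM, and the Grb10 to Grb14 count ratio was 1.04 in both treated libraries and 1.06 in control replicate 1, against 0.745 in control replicate 3. Maf1 (ENSMUSG00000022553, chromosome 15, 76351294 to 76354380, plus strand), whose product represses RNA polymerase III until mTORC1 phosphorylates it, had 99.8 and 70.5 CPM with INK128 and 66.7 and 75.2 CPM in controls. Here the treated libraries were the ones apart, and the log2 fold change was 0.25 (95% interval -0.36 to 0.87, edgeR adjusted p = 0.467).

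**Figure D3:**
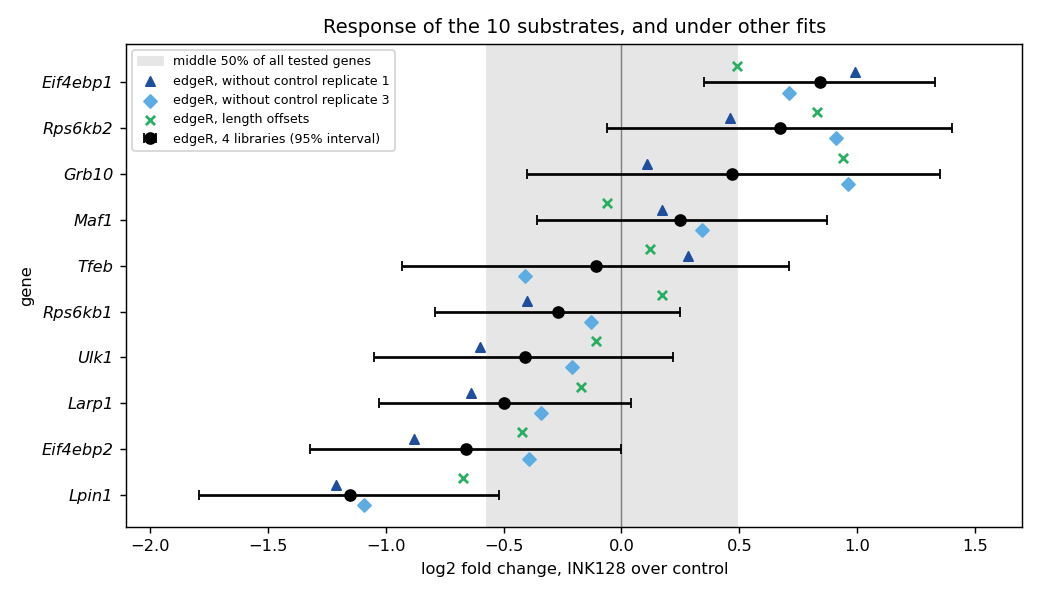
Log2 fold change of INK128 over control for each gene from edgeR with all 4 libraries (black, 95% interval), without each control in turn (blue), and with offsets for exon length (green crosses), over the middle 50% of all tested genes (grey, -0.57 to 0.49). Eif4ebp1, Rps6kb2 and Lpin1 have values outside the grey band with all 4 libraries, as does Eif4ebp2 at -0.66, and the crosses of Rps6kb1, Tfeb and Maf1 fall on the other side of 0 from the black points.

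As the controls differed in germ cell, Sertoli, theca and luteal markers, the comparison was repeated without each of them. Without control replicate 1, edgeR called 5 of the 10 genes (Eif4ebp1 as higher, and Eif4ebp2, Ulk1, Larp1 and Lpin1 as lower), against 45.8% of all tested genes. Without control replicate 3 it called 4 of them (Rps6kb2, Eif4ebp1 and Grb10 as higher, and Lpin1 as lower), against 42.6% of all tested genes. In these fits the lone control was assumed to vary like the INK128-treated libraries. Lpin1 had log2 fold changes of -1.21 and -1.09 in these fits, and Eif4ebp1 of 0.99 and 0.71. The share of all tested genes called in both fits was not computed. Grb10 depended on which control was kept, with a log2 fold change of 0.96 (edgeR adjusted p = 0.00323) against control replicate 1 and of 0.11 against control replicate 3. The 3 genes called as lower beside Lpin1 without control replicate 1 were closer to 0 without control replicate 3, with Eif4ebp2 at -0.39 against -0.88, Ulk1 at -0.21 against -0.60 and Larp1 at -0.34 against -0.64. Rps6kb2 was at 0.91 without control replicate 3 and at 0.46 without control replicate 1. Tfeb changed sign, from -0.41 against control replicate 1 to 0.28 against control replicate 3.

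Levels of different genes can be set side by side per length, as CPM per kb of exon, with all annotated exons of a gene joined. The order given here depends on these lengths. In controls Eif4ebp2 (27.6 and 38.7 CPM per kb) and Maf1 (27.6 and 31.2) were at the top, followed by Larp1 (19.5 and 24.1) and Eif4ebp1 (21.6 and 17.8). Grb10 (6.8 and 12.2) and Ulk1 (7.51 and 9.84) came next, and Rps6kb1 (4.8 and 5.81), Tfeb (4.8 and 2.98), Lpin1 (2.89 and 3.15) and Rps6kb2 (2.51 and 3.42) were at the bottom. Neighbours in this order overlapped or were level, other than at the steps from Maf1 to Larp1, from Eif4ebp1 to Grb10 and from Ulk1 to Rps6kb1. In INK128-treated rOvaries Eif4ebp1 (34.5 and 36.7 CPM per kb) and Maf1 (41.4 and 29.2) led and overlapped, ahead of Eif4ebp2 (23.5 and 18.9). Larp1 (17.0 and 14.2) and Grb10 (11.9 and 14.7) overlapped, above Ulk1 (7.4 and 5.75). Rps6kb2 (4.38 and 5.12) and Rps6kb1 (4.61 and 4.25) overlapped, above Tfeb (3.77 and 3.53), and Lpin1 was last (1.51 and 1.23).

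Fold changes in these libraries ran with exon length, taken as all annotated exons of a gene joined over its transcripts. Across the 11700 tested genes with an exon length, the log2 fold change and the exon length had a Spearman correlation of -0.465, given as a description, since genes share the same 4 libraries. The 10 genes ran from Eif4ebp1 with 2196 bases and Maf1 with 2412 bases, through Rps6kb2 (5167), Tfeb (5669), Eif4ebp2 (5784), Ulk1 (6488) and Larp1 (6829), to Rps6kb1 (8658), Grb10 (9089) and Lpin1 with 9665 bases. When edgeR was given offsets for a trend on exon length in each library, Lpin1 was at -0.67 on the log2 scale (adjusted p = 0.162) and Eif4ebp1 was at 0.49 (adjusted p = 0.15). Values moved away from 0 for the long gene Grb10 (0.94) and for Rps6kb2 (0.83), and towards 0 for Eif4ebp2 (-0.42), Ulk1 (-0.11) and Larp1 (-0.17). In that fit Rps6kb1, Tfeb and Maf1 changed sign (0.17, 0.12 and -0.06), the median of the 10 genes was 0.03 against 0.05 for all tested genes, and no tested gene at all was called (3168 of 11700 had an unadjusted p below 0.05). The cause of the relation with length was not tested.

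**Figure D4:**
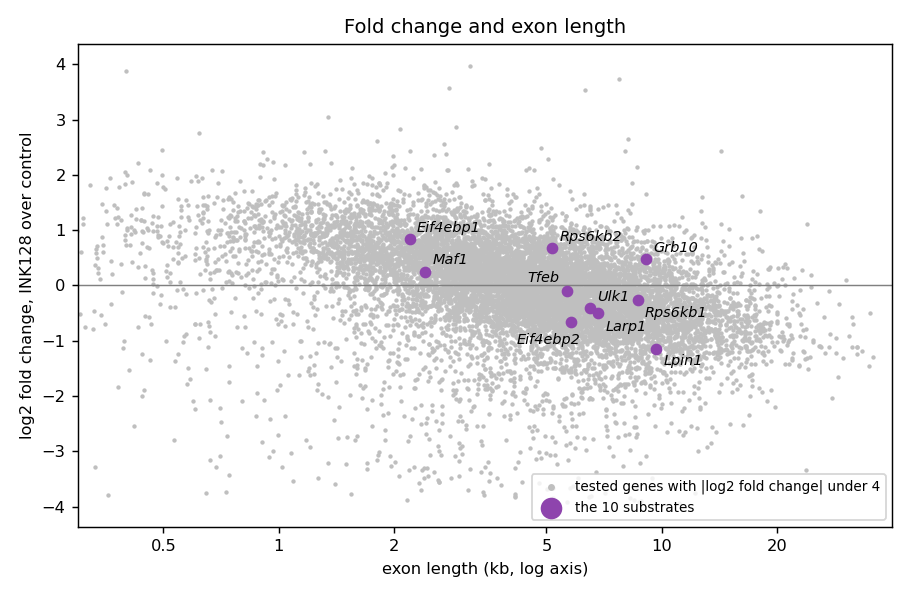
Log2 fold change of INK128 over control against exon length (kb, log axis) for tested genes between 0.3 and 40 kb with a fold change under 4 on the log2 scale (grey), and for the 10 substrates (purple). The grey cloud slopes down with length. Eif4ebp1 and Maf1 lie at the short end above 0, Lpin1 at the long end below 0, and Grb10 is long but above 0.

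Genes around the substrates were taken from 9 lists of partners, paralogs and targets, 208 genes in all, of which 196 were tested. With 6.37% of all tested genes called, 12 of these were called as higher and 4 as lower with INK128 by edgeR, or 16 of 196, and DESeq2 called 31 as higher and 32 as lower, or 63 of 196, where it called 28.6% of all tested genes. Scaled by library totals, which moved the median of all genes to -0.16, edgeR called 8 as higher and 10 as lower. With TMM scaling the median log2 fold change of the 196 genes was -0.09, and with the length offsets it was 0.08. With those offsets the medians of the single lists were -0.02 for mTORC1 and its regulators, 0.30 for the cap-binding complex and 0.10 for the S6 kinase list. They were -0.05 for the ULK1 list, -0.06 for the TFEB list and -0.23 for the lipin and SREBP list. The insulin list was at -0.09, and the RNA polymerase III list at 0.09, the same value as without offsets. None of the genes of these lists was called.

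Among 30 tested genes of mTORC1 and its regulators, 2 were called as higher and 1 as lower (median -0.13). Of all tested genes, 3.18% were called as higher and 3.19% as lower. Lamtor4 and Lamtor2, subunits of the Ragulator that anchors mTORC1 to the lysosome, had log2 fold changes of 1.20 and 0.93 (edgeR adjusted p = 0.0489 and 0.0496). With the length offsets they were at 0.67 and 0.41 (edgeR adjusted p = 0.19 and 0.257). Rragd, a Rag GTPase and itself a target of TFEB, had 8.03 and 5.64 CPM with INK128 and 35.3 and 31.4 CPM in controls, or -2.30 on the log2 scale (standard error 0.29, edgeR adjusted p = 0.0464). It was also the 1 called gene among 30 tested relatives and lysosomal targets of TFEB, whose median was -0.11. The proton pump subunit Atp6v1a of that list had a log2 fold change of -1.13 without a call (edgeR adjusted p = 0.105).

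In the list of TOP transcripts and the LARP family, 8 of 25 tested genes were called, all as higher, with a median of 0.80, where 3.18% of all tested genes were called as higher. Fau had 868 and 1050 CPM with INK128 and 346 and 272 CPM in controls, a log2 fold change of 1.62 (edgeR adjusted p = 0.0464), and Eef1d, Eef1b2 and Naca had log2 fold changes of 1.40, 1.39 and 1.38 (each with an adjusted p of 0.0464). Eef1d and Eef1b2 are parts of the exchange factor of translation elongation and Naca binds nascent chains, whereas Fau, although in this list, encodes a ribosomal protein as part of a fusion. These abundant genes have processed pseudogenes to which some reads could have been assigned. With the length offsets 0 of the 25 were called and the list had a median of 0.56. Fau and Eef1b2 were then both at 1.11 on the log2 scale, and Eef1d and Naca, whose joined annotated exons are longer, both at 1.7. These offsets use the joined exons, and the length of the transcripts expressed was not measured. Larp1 itself was not in the list.

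In the list of the cap-binding complex, edgeR called 0 of 16 tested genes (median 0.20), against 6.37% of all tested genes. DESeq2, with 28.6% of all tested genes called, called 2 of the 16, Eif4ebp3 and the eIF4E kinase gene Mknk2 (log2 fold change -0.66, edgeR adjusted p = 0.0709). Among 18 genes of S6 kinase substrates and partners, Rps6 was called as higher and Rps6ka2, a kinase of the related RSK family, as lower, at 33.7 and 32.5 CPM with INK128, below both controls (log2 fold change -2.22, edgeR adjusted p = 0.0464). In the ULK1 list, 1 of 24 tested genes was called, Rb1cc1, the scaffold of the ULK1 complex, with 39.1 and 34.7 CPM against 72.8 and 71 CPM (log2 fold change -0.98, edgeR adjusted p = 0.0496). With the length offsets Rb1cc1 was at -0.35 (edgeR adjusted p = 0.29). Map1lc3a, a marker of autophagosome membranes, had 221 CPM in both treated libraries and 52.5 and 102 CPM in controls without a call (log2 fold change 1.51, edgeR adjusted p = 0.0629; 0.95 with the length offsets).

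In the list of lipins and SREBP targets, edgeR called 1 of 19 tested genes, as lower, against 6.37% of all tested genes in either direction. Of the 19, 16 had a negative log2 fold change (median -0.74, or -0.23 with the length offsets), as did 6038 of all 11758 tested genes. The called gene was Scd1, a fatty acid desaturase, with 15.9 and 18.5 CPM against 65.7 and 104 CPM (log2 fold change -2.32, edgeR adjusted p = 0.0464). Its paralog Scd2 had a log2 fold change of -1.34 (edgeR adjusted p = 0.0507). Sqle, an enzyme gene of cholesterol synthesis named after its values were seen, had 63 and 56.6 CPM with INK128, between control replicate 1 at 35.2 CPM and control replicate 3 at 126 CPM. In 12 of the 19 genes the groups overlapped, as in 3701 of the 11758, and the part of the kidney tissue, whose markers were lower with INK128 as well, was not tested. Insulin receptor signaling and GRB adaptors had 0 of 17 tested genes called by edgeR and 7 by DESeq2, all lower (median -0.37, or -0.09 with the length offsets; DESeq2 called 1772 of the 11758 tested genes as lower), with Irs2 at -1.56 (edgeR adjusted p = 0.0805) and Sos1 at -1.12 (edgeR adjusted p = 0.0528; -0.61 with the length offsets). Of the genes of RNA polymerase III, on which MAF1 acts, 1 of 24 was called, Polr1d, a subunit shared with RNA polymerase I, at 163 and 152 CPM against 61.6 and 67.6 CPM (log2 fold change 1.27, edgeR adjusted p = 0.0464). Polr3g, a subunit particular to polymerase III, had a log2 fold change of -1.19 without a call (edgeR adjusted p = 0.118), and the list's median was 0.09.

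**Figure D5:**
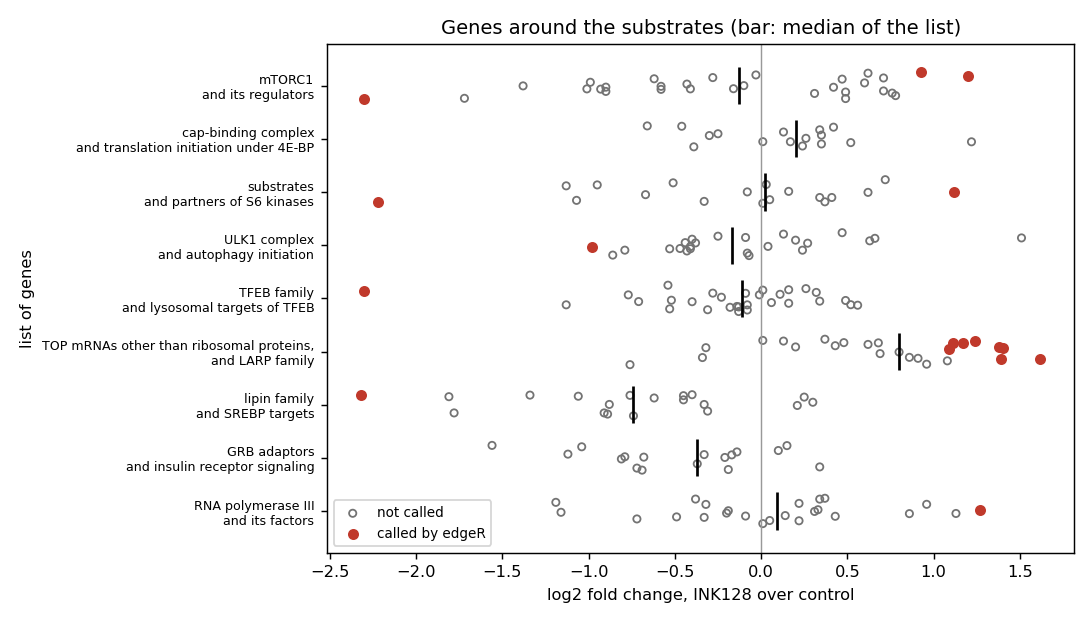
Log2 fold change of INK128 over control for each tested gene of the 9 lists, with genes called by edgeR in red, other genes as open circles and the median of each list as a black bar. The TOP list has a median of 0.80 and 8 red points on the right, and the lipin and SREBP list a median of -0.74. With offsets for exon length these medians were 0.56 and -0.23.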

How the data were processed

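RNA of rOvaries from 2 INK128-treated and 2 control samples was sequenced after selection of polyadenylated transcripts. The values are raw counts of reads per gene symbol as the authors deposited them, neither normalized nor pooled. Per the study's methods, Trimmomatic was used for trimming, Hisat2 for alignment (build mm10) and featureCounts for counting, on an annotation named RefGene; whether strand was used is not stated. Columns were matched to libraries by name. Of 54021 symbols, 53447 matched GENCODE release M21, from which positions and exon lengths came, and 574 did not. An exon length is that of all exons of a gene joined over its annotated transcripts, whereas the reads were counted on RefGene.

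The counts were tested with edgeR 4.0.16 in R 4.3.3 (TMM, quasi-likelihood F-test, Benjamini-Hochberg adjustment, 11758 genes after requiring a mean over 10 CPM). The study's limit was also 10 CPM, but its methods do not say how it was applied across libraries. Standard errors and 95% intervals came from the F statistic. DESeq2 1.42.0 and limma 3.58.1 (voom) were alternatives. Ratios of raw counts were compared by exact permutation over libraries. The fits were tested on simulated data. Genes and lists were chosen with earlier results of these data known. Apart from the 10 genes and the ratio partners, up to 4 called genes were named per list, with the largest fold changes, and where fewer than 2 were called, the 2 largest among genes whose groups did not overlap; other genes mentioned for their role were added after their values were seen. Some genes are not reported here. Alternatives changed the test, scaling, filter, length and GC offsets, thresholds and the libraries kept.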

Additional observations from a re-analysis of the deposited data

How the results depend on the processing

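Over 16 other fits, all 10 genes kept their direction apart from Rps6kb1, Tfeb and Maf1, and Lpin1 (-1.32 to -0.67) was called in 6 and Eif4ebp1 (0.71 to 0.99 without 1 library, 0.49 with length offsets) in 5. Signs turned with length offsets for Rps6kb1 (0.17), Tfeb (0.12) and Maf1 (-0.06), and with 1 library left out for Tfeb (-0.41 to 0.28) and Maf1 (-0.03 to 0.47). Of the 10 genes, 1 was called as higher and 1 as lower with DESeq2 (28.6% of all tested genes called), with CPM above 10 in all 4 libraries (15.1%), with at least 1 count (9.86%) and with an adjusted p below 0.1 (26.6%). With CPM above 10 in at least 2 libraries (13.1%), 1 was called as lower. Leaving out a library gave 0 to 3 higher and 0 to 4 lower calls. Among genes of the lists, called as higher or lower, DESeq2 gave 31 and 32, at least 1 count 20 and 18, and an adjusted p below 0.1 gave 29 and 29. There were 8 and 10 with library totals (7.82% of all tested genes called), 17 and 14 with CPM above 10 in all 4 libraries, 15 and 13 in at least 2, and 7 and 3 with GC offsets (4.54%). There were 0 and 0 calls with limma voom (0 called among all tested genes, 3979 at an unadjusted p below 0.05), with a mean CPM above 1 (5797) and with length offsets. Leaving out a library gave 0 to 41 higher and 0 to 50 lower calls, with none without either INK128 replicate and most without a control, where the spread comes from the INK128-treated libraries alone. The cause of the other shifts was not tested.

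Among the ratios, leaving out a library gave differences in log2 ratio of -1.12 to -0.78 for Rps6kb1 to Rps6kb2, 1.11 to 1.88 for Eif4ebp1 to Eif4ebp2 and 0.18 to 0.72 for Ulk1 to Ulk2. The others turned sign: -0.84 to 0.01 for both 4E-BP genes to Eif4e, -0.14 to 0.13 for Tfeb to Tfe3, -0.98 to 0.08 for Lpin1 to Lpin2, -0.46 to 0.15 for Larp1 to Larp1b and -0.03 to 0.48 for Grb10 to Grb14. No paired analysis was made, because the sources used here describe no pairing of the libraries.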
